A study of Bos taurus with 129 samples.

Results

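The Toll-like receptor genes TLR1 to TLR10 were followed in whole blood of beef steers during their first 60 days in drylot pens. The members were taken by symbol from the deposited table of gene counts, in which 9 of the 10 symbols had a row among 32395 genes. These 9 members also passed the filter on low counts that left 18937 genes for testing, and TLR1 had no row and is named only. TLR4 and TLR7 were called lower than on day 0 on days 13, 28 and 60, TLR8 on days 13 and 28 by less, and TLR3 was called higher on day 13. With edgeR and the designs given below, no member was called different between healthy and diseased cattle or between supplement programs, and the calls under other settings are given beside these results.

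Toll-like receptors are membrane proteins that bind conserved molecules of microbes and start inflammatory and interferon signaling. At the cell surface, TLR4 binds lipopolysaccharide of Gram-negative bacteria together with CD14 and LY96, TLR2 binds bacterial lipoproteins as a partner of TLR1 or TLR6, and TLR5 binds flagellin. In endosomes, TLR3 binds double-stranded RNA, TLR7 and TLR8 bind single-stranded RNA, and TLR9 binds unmethylated DNA of bacteria and viruses. Most members signal through the adaptor MYD88, TLR3 signals through TICAM1, and in blood the family is known from neutrophils, monocytes, dendritic cells and B cells.

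Blood of 26 crossbred beef steers was drawn into tubes that stabilize RNA on day 0 and again on days 13, 28, 45 and 60, and each animal gave 1 library per day except animal 48, whose day 13 library had been removed by the authors. The healthy label covered 12 steers that were neither diagnosed with nor treated for bovine respiratory disease (BRD), and the BRD label covered 14 steers. The feed held copper, cobalt, manganese and zinc as sulfates (INR), as complexes with amino acids (AAC), or as these complexes with an oral trace mineral drench before shipment, on day 0 and with any treatment for illness (COMBO). Healthy cattle were 4 animals in each supplement program, and BRD cattle were 4 in AAC, 3 in COMBO and 7 in INR.

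All steers had been bought from 1 order buyer, hauled by truck, vaccinated against respiratory viruses and dewormed on day 0, and vaccinated again between days 13 and 28. Time in the pens, recovery from transport, both vaccinations and growth therefore came with day and cannot be told apart. The labels do not give the day on which a BRD animal fell ill, so its libraries can precede or follow the disease. Supplements were assigned by pen group, with pens 2 and 8 for AAC, 5 and 6 for COMBO and 3, 4 and 7 for INR. Program and pen group therefore cannot be told apart, and animals of a pen group are not independent replicates of a program. In COMBO, the healthy animals belonged to pen 5 and the BRD animals to pen 6, so pen group and disease label cannot be told apart there. The paper states that steers were rotated between pens during the study. The pen numbers thus name groups of animals rather than fixed pens. Age was not given in the sources used here.

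Total counts per library ranged from 31613545 to 61692136, with a median of 44268685. Levels are given in CPM (counts divided by library size, scaled by TMM factors), and since transcript lengths were not used, levels were compared within a gene and not between genes. Each of the 9 blood cell marker lists was detected, and TSPO2 of the erythroid list was the only marker in the table with 0 counts in all libraries. In whole blood, fewer cells of a type and less RNA per cell cannot be told apart.

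Over all libraries, TLR2 ranged from 43.1 to 124.1 CPM (median 78.1), TLR4 from 24.6 to 187 CPM (median 62.1) and TLR5 from 0.841 to 8.80 CPM (median 2.98). TLR5 was thus read at 37 to 389 counts per library, whereas TLR2 was read at 1842 to 7285. Among the endosomal receptors, TLR3 ranged from 13.1 to 46.1 CPM (median 27.5), TLR7 from 56.1 to 226 CPM (median 94.2), TLR8 from 50.1 to 207 CPM (median 100.9) and TLR9 from 7.07 to 33.1 CPM (median 14.5). TLR6 ranged from 0 to 24.7 CPM (median 6.25), and TLR10, a receptor whose ligands are less settled, from 0 to 60 CPM (median 8.94).

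The members differed in how the variance of their levels was divided. For TLR3 and TLR8, 67.9% and 66% of the variance of log2 levels lay between animals, and 4.11% and 4.78% between days. For TLR7 the order was the opposite, with 18.5% between animals and 32.1% between days. TLR4 had 27.6% for each. These are shares of the sum of squares over 26 animals or 5 days, without a correction for their number. The larger number of animals raises their share even where animals do not differ. The 2 shares of a member therefore cannot be weighed against each other, and each is compared between members only.

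**Figure D1:**
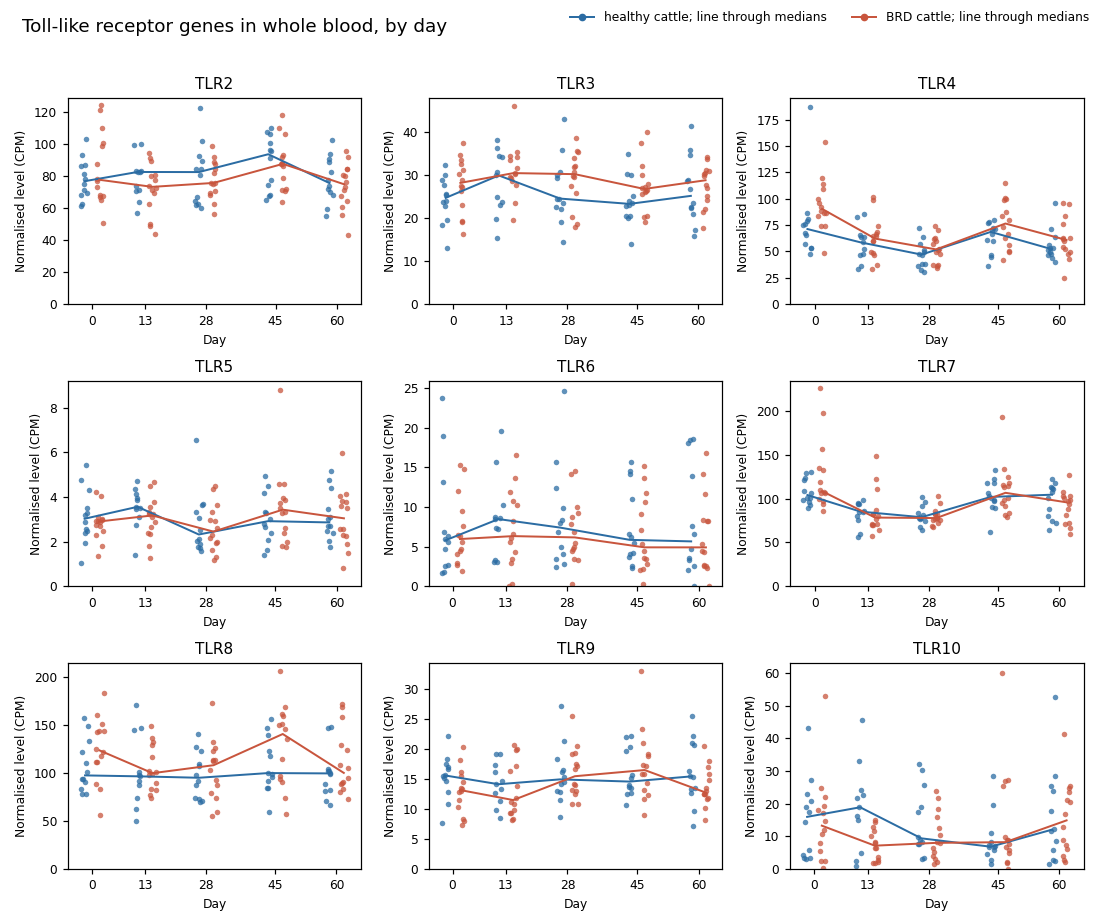
Normalised level (CPM, linear axis from 0) of the 9 measured Toll-like receptor genes by day, with 1 point per library, healthy cattle in blue and BRD cattle in red, and lines through the medians of each label. The medians of TLR4 were highest on day 0 and lowest on day 28 in both labels (71.3 and 47.1 CPM in healthy cattle), whereas the points of TLR6 and TLR10 spread widely on each day.

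Changes from day 0 were tested with edgeR's quasi-likelihood test with animal as a block, the healthy and BRD changes weighted equally, and an adjusted p (FDR, Benjamini-Hochberg over all genes tested) below 0.10 taken as a call. On day 13, 4 of 9 members were called, beside 32% of all genes tested (6104 of 18937). On day 28, 3 were called beside 35.8% of all genes, on day 45, 1 beside 29.9%, and on day 60, 2 beside 32.5%. These counts lie near or below the background, so the results below concern single members rather than the family.

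TLR4, the lipopolysaccharide receptor, fell after arrival. Its level on day 0 had a lowest value of 47.4, a median of 82 and a highest value of 187 CPM over 26 animals, and on day 28 these were 30.8, 49.52 and 74.7 CPM. The groups of libraries overlapped, but 25 of 26 animals were lower on day 28 than on day 0. Its level fell by 41.8%, a log2 fold change of -0.78 (SE 0.108) with an FDR of 7.39e-09 in edgeR's quasi-likelihood test.

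On day 13, TLR4 had a median of 59.9 CPM (33 to 101.9) and was lower than on day 0 in 20 of 25 animals, with a log2 fold change of -0.50 (SE 0.109, edgeR FDR 0.000265). On day 45 its median was 71.1 CPM (36.7 to 115.1), with 17 of 26 animals lower and a log2 fold change of -0.29 (SE 0.107, edgeR FDR 0.0409). The call on day 45 was lost in healthy cattle alone (-0.22, FDR 0.501), without animal 6 (log2 fold change -0.23), without animal 43 (-0.21), and without the day 0 libraries of animals 6, 21 and 43 together (-0.17). On day 60 its median was 54 CPM (24.6 to 96.1), with 24 of 26 animals lower and a log2 fold change of -0.55 (SE 0.107, edgeR FDR 3.94e-05). TLR4 was thus lowest on day 28 and partly back toward its day 0 level on day 45.

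TLR7, a receptor of single-stranded RNA on chromosome X, had the most uniform change. On day 0 it ranged from 86 to 226 CPM, and on day 28 from 64.7 to 102.6 CPM with a median of 78.2. All 26 animals were lower on day 28 than on day 0, with log2 ratios from -1.63 to -0.21. Its level fell by 30.6%, a fitted log2 fold change of -0.53 (SE 0.0796, edgeR FDR 9.55e-08).

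TLR7 was also lower on day 13, in 23 of 25 animals, with a median of 82.3 CPM (56.1 to 149) and a log2 fold change of -0.47 (SE 0.0811, edgeR FDR 3.49e-06). On day 60 its median was 97.8 CPM (60.1 to 126.6), and 19 of 26 animals were lower, with a log2 fold change of -0.32 (SE 0.0797, edgeR FDR 0.0015). On day 45 it did not pass the test, with a median of 101.9 CPM (61.5 to 193) and a log2 fold change of -0.13 (95% interval -0.29 to 0.02).

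TLR8, the second receptor of single-stranded RNA, was called lower on days 13 and 28, but by less. Its day 0 level ranged from 55.8 to 183 CPM (median 114.6), its day 13 level from 50.1 to 171 CPM (median 97.9) and its day 28 level from 55.2 to 173 CPM (median 100.7), so the days overlapped over nearly their whole range. It was lower in 17 of 25 animals on day 13 (log2 fold change -0.17, edgeR FDR 0.0904) and in 19 of 26 animals on day 28 (log2 fold change -0.21, edgeR FDR 0.0219). Both calls were lost without the day 0 libraries of animals 6, 21 and 43, with log2 fold changes of -0.11 and -0.15, and the call on day 13 was lost in 11 of the 26 fits that left out 1 animal each. Both were also lost without the animal block (edgeR FDR 0.396 on day 13 and 0.236 on day 28). The same held in healthy cattle alone (edgeR FDR 0.627 and 0.45). In BRD cattle alone, the call on day 13 was lost (log2 fold change -0.23, edgeR FDR 0.121).

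TLR3, which binds double-stranded RNA, was the single member called higher, and on day 13 alone. Its level ranged from 13.1 to 37.4 CPM on day 0 (median 26.7) and from 15.4 to 46.1 CPM on day 13 (median 30.3), and 20 of 25 animals were higher. The log2 fold change was 0.18 (SE 0.0615, edgeR FDR 0.0261), a level 13.0% higher. On days 28, 45 and 60 its log2 fold changes lay between -0.01 and 0.09 and did not pass the test. The call on day 13 was lost without the animal block (log2 fold change 0.19, edgeR FDR 0.185), in healthy cattle alone (0.18, FDR 0.22) and in BRD cattle alone (0.17, FDR 0.179).

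TLR2, TLR5, TLR6, TLR9 and TLR10 were not called on any day against day 0 with both labels weighted equally. For TLR2, a receptor of lipoproteins, the 95% intervals of the log2 fold change over the 4 days lay within -0.22 and 0.23, and for TLR5, the flagellin receptor, within -0.37 and 0.35. For TLR9, the DNA receptor, they lay within -0.24 and 0.42. For TLR6 and TLR10 the intervals were wide, from -0.73 to 0.76 and from -1.20 to 0.85, so that changes of up to those sizes could not be detected at this replication.

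**Figure D2:**
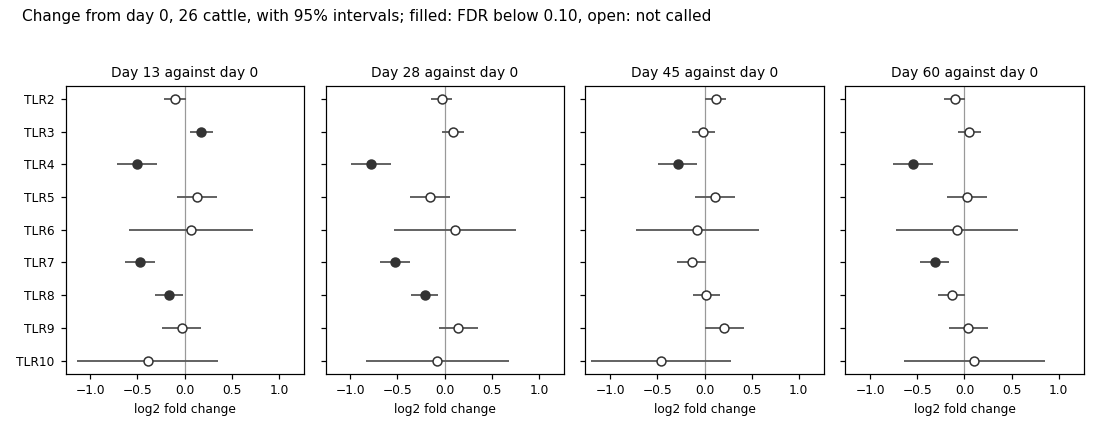
Log2 fold change of each measured Toll-like receptor gene on days 13, 28, 45 and 60 against day 0 (horizontal axis, 26 animals, animal as a block) with 95% intervals, where filled points had an FDR below 0.10 and open points were not called. TLR4 lay left of 0 on each day, from -0.29 on day 45 to -0.78 on day 28, and the widest intervals were those of TLR6 and TLR10.

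Comparisons between the later days, added after the data had been seen, placed a rise between days 28 and 45. Of the 9 members, 5 were called between days 28 and 45, each of them higher on day 45, beside 28.2% of all genes called in either direction. TLR4 rose by 0.50 (SE 0.107, edgeR FDR 0.00029), TLR7 by 0.39 (SE 0.0795, edgeR FDR 0.000116) and TLR8 by 0.23 (SE 0.0731, edgeR FDR 0.0151) on the log2 scale. TLR5 and TLR2 rose by 0.27 and 0.15, with edgeR FDRs of 0.0609 and 0.055. Leaving out 1 animal at a time, the call of TLR5 was lost without animals 10, 23, 29, 46 or 48 and that of TLR2 without animals 23 or 34.

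Day 45 against day 13 also gave 5 calls, beside 35.1% of all genes. TLR2, TLR7, TLR8 and TLR9 were higher on day 45, by 0.21, 0.34, 0.19 and 0.24 on the log2 scale, and TLR3 was lower by a log2 fold change of -0.19. The call of TLR9 was lost in 14 of the 26 fits that left out 1 animal each. Between days 13 and 28, when all steers were vaccinated again, no member was called by edgeR, beside 1.62% of all genes, with 2 members (TLR4 and TLR5) at an unadjusted p under 0.05 and 0 called by DESeq2. On day 60, 0 members were called against day 13 by edgeR (17.7% of all genes, TLR3 alone at an unadjusted p under 0.05, 0 called by DESeq2). TLR7 alone was called on day 60 against day 28 (log2 fold change 0.21, edgeR FDR 0.0775, 13.1% of all genes), and this call was lost in 10 of the 26 fits that left out 1 animal each. TLR2 alone was called between days 45 and 60, at which it fell by 0.22 (edgeR FDR 0.0156), beside 7.66% of all genes.

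The lower day 28 levels of TLR4 and TLR7 were found in each label. Among healthy cattle, TLR4 was lower on day 28 in 11 of 12 animals (median 71.3 CPM on day 0 and 47.1 on day 28) and TLR7 in 12 of 12 (median 78.8 CPM on day 28). The healthy fall of TLR4 was uneven over the programs. Its mean went from 67.4 CPM on day 0 to 34.8 on day 28 in AAC and from 107.3 to 50.9 in COMBO. In healthy INR cattle it changed little, from 57.4 to 55.3 CPM. Among BRD cattle, TLR4 was lower in 14 of 14 animals (median 90.4 CPM on day 0 and 52 on day 28) and TLR7 in 14 of 14 (108.4 and 77.8 CPM). On days 13, 28, 45 and 60, edgeR called 1, 2, 0 and 1 members in healthy cattle, beside 11%, 21%, 8.55% and 11.6% of all genes. In BRD cattle it called 3, 3, 2 and 3 members, beside 17%, 20%, 23% and 19.6% of all genes. Besides TLR4, TLR7 and TLR8, these calls held TLR2, which was lower on day 13 (log2 fold change -0.23, edgeR FDR 0.0468) and day 60 (-0.20, edgeR FDR 0.0789), and TLR9, which was higher on day 45 (0.38, edgeR FDR 0.0571).

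The difference of these changes between the labels was tested directly, and no member was called by edgeR on any day, beside 0% of all genes. Of the 36 tests, 1 had an unadjusted p under 0.05 (TLR2 on day 13, with a log2 difference of changes of -0.26 and an FDR of 1 in edgeR's quasi-likelihood test), and DESeq2 called 0. For TLR4 on day 28 the difference was -0.21 (95% interval -0.64 to 0.21) and for TLR7 it was -0.22 (95% interval -0.54 to 0.09). Both intervals include 0, and they leave room for a larger fall in BRD cattle of up to those lower bounds.

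Markers of the cell types that carry the family moved with day as well, and those of neutrophils and monocytes are given first. The backgrounds beside them are the shares of all genes called on days 13, 28, 45 and 60, at 32%, 35.8%, 29.9% and 32.5%. Of the 9 neutrophil markers tested, 4, 5, 4 and 5 were called lower and 0 higher on days 13, 28, 45 and 60, with MMP25 at a log2 fold change of -0.03 (FDR 0.709) and S100A12 at -0.92 (edgeR FDR 5.86e-08) on day 28. Of the 10 monocyte markers, 5, 7, 4 and 7 were called lower, with CSF1R at -0.20 (edgeR FDR 0.0894) and VCAN at -1.12 (edgeR FDR 3.83e-10) on day 28. The summed level of the neutrophil list had a median of 2710 CPM on day 0 (1750 to 9840) and 2130 CPM on day 28 (1260 to 3160), and that of the monocyte list 1430 CPM (747 to 3350) and 860 CPM (624 to 1770). None of these markers was at 0 in all libraries, and their part in the fall of TLR4 was not tested.

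Over all libraries, which repeat the same animals, log2 levels of TLR4 had a Pearson r of 0.73 with the summed neutrophil list and 0.70 with the monocyte list. TLR8 had 0.36 and 0.40, and TLR2 0.21 and 0.26 with the same lists. TLR7 and TLR2 were closest to the dendritic list (0.56 and 0.50) and TLR9 to the B cell list (0.53), whereas TLR3 stayed between -0.22 and 0.25 with all 9 lists. TCF4 and IRF8 carried most of the dendritic sum, with means of 111.7 and 66 CPM, and each other marker had at most 16.9 CPM. The values for this list may therefore rest mainly on TCF4 and IRF8. The summed level of the dendritic list had a median of 202 CPM on day 0 (177 to 423) and 213 CPM on day 28 (173 to 313), with TCF4 at a log2 fold change of 0.28 (edgeR FDR 0.000408) and IRF8 at 0.10 (FDR 0.141). Of its 9 markers tested, 2 were called higher on day 28, TCF4 and FCER1A (log2 fold change 0.78, edgeR FDR 4.27e-08). The 3 called lower were BATF3 (-0.72, edgeR FDR 2.48e-08), XCR1 (-0.31, edgeR FDR 0.0107) and SIGLEC1 (log2 fold change -1.49, edgeR FDR 0.000408). Their part in the change of TLR7 was not tested.

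The summed B cell list rose from a median of 2340 CPM (943 to 4160) to 2670 CPM (1220 to 4250) between days 0 and 28, with 5 of 10 markers called higher, among them MS4A1 (log2 fold change 0.19, edgeR FDR 0.0552) but not CD79A (0.04, FDR 0.698). The erythroid list varied most, from a median of 154 CPM on day 0 (37.6 to 2580) to 2490 CPM on day 13 (147 to 28000), with HBB higher by 3.61 (edgeR FDR 4.72e-09) and HBA by 3.98 (edgeR FDR 1.19e-09) on the log2 scale. The platelet list rose from 848 CPM (437 to 2690) to 1600 CPM (882 to 2970) on day 28, with TUBB1 and PF4 higher by 0.84 and 0.81 (edgeR FDR 1.24e-07 and 1.77e-08). T cell, NK and cytotoxic and eosinophil and basophil lists had 1 of 10, 5 of 9 and 2 of 9 markers called lower and 0, 2 and 3 called higher on day 28, with CD3E at -0.13 (FDR 0.235), CD3D at -0.05 (FDR 0.664), TBX21 at 0.21 (edgeR FDR 0.0757), PRF1 at -0.49 (edgeR FDR 6.07e-06), SIGLEC8 at -0.22 (edgeR FDR 0.0113) and ALOX15 at 0.10 (FDR 0.827). The part of these cells in the changes of the receptors was not tested.

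Genes whose proteins work with the receptors were read from a list of 45, of which 44 were tested. On day 13, 12 were called lower and 3 higher, on day 28, 19 lower and 7 higher, on day 45, 8 lower and 9 higher, and on day 60, 12 lower and 8 higher, beside the backgrounds of 32%, 35.8%, 29.9% and 32.5% given above. The median log2 fold change of the list was -0.05, -0.04, 0.01 and -0.03 on the 4 days, and that of all genes 0.01, 0.01, -0.01 and 0.00.

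The co-receptors held the largest falls. CD14, which hands lipopolysaccharide to TLR4 and is also on the monocyte list, had a median of 113.8 CPM on day 0 (53 to 338) and 45.3 CPM on day 28 (27.2 to 93.1). Its log2 fold changes were -1.17, -1.25, -1.18 and -1.45 on days 13, 28, 45 and 60, with edgeR FDRs from 8.98e-14 to 8.86e-19. LY96, the subunit that binds lipopolysaccharide on TLR4, was lower on each day too, from a median of 52.8 CPM on day 0 (27.7 to 84) to 38.30 CPM on day 28 (24 to 70.3), with a log2 fold change of -0.45 (SE 0.0888, edgeR FDR 3.53e-05).

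CD36, a scavenger receptor that assists TLR2 with TLR6, was scarce, with a median of 1.49 CPM on day 0 (0.103 to 12.33) and 0.162 CPM on day 28 (0 to 0.698). Its log2 fold changes lay between -3.35 and -3.72 over the 4 days (edgeR FDR 4.04e-15 on day 13). LBP, the lipopolysaccharide-binding protein that is made mainly in liver, had 0 counts in 3 of 26 libraries on day 0 and in 19 of 26 on day 28, and its calls rest on levels of at most 0.927 CPM.

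Among the adaptors, MYD88 had a median of 302 CPM on day 0 and 239 CPM on day 28, and was called lower on days 13, 28 and 60 (log2 fold changes -0.23, -0.32 and -0.19). TIRAP, which bridges TLR2 and TLR4 to MYD88, was lower on each day, with log2 fold changes from -0.28 on day 45 to -0.20 on day 13. TICAM1, the adaptor of TLR3, was called on day 45 alone, at 0.12 (edgeR FDR 0.0746). UNC93B1, which carries the endosomal receptors out of the endoplasmic reticulum, was lower on each day (-0.20 to -0.11 on the log2 scale), and the chaperone HSP90B1 was higher on each day (0.18 to 0.25). SLC15A4, an endolysosomal transporter needed for signaling of endosomal receptors, was called on day 60 alone, higher by 0.14 (edgeR FDR 0.00133).

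Among kinases and ubiquitin ligases, 2 of 14 were called lower and 1 higher on day 13, and 3 lower and 4 higher on day 28. TRAF6, the ligase downstream of MYD88, had log2 fold changes of -0.12 and -0.11 on these days (edgeR FDR 0.000185 and 0.000506), while IKBKE, a kinase of the interferon branch, was higher by 0.30 and 0.32 (edgeR FDR 2.13e-05 and 2.23e-06). IRAK1, a kinase that MYD88 recruits, was higher on day 28 by 0.12 (edgeR FDR 0.00146). On day 45, TRAF3 and the interferon kinase TBK1 were higher by 0.10 and 0.17 (edgeR FDR 0.000445 and 0.000713).

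Of the transcription factors, NFKB1 was called higher on days 45 and 60, by 0.25 and 0.14 (edgeR FDR 2.41e-09 and 0.000528). RELA was called lower on days 13, 28 and 60, with log2 fold changes of -0.12, -0.12 and -0.10 (edgeR FDR 0.00684, 0.00366 and 0.0172). IRF3 was called lower on days 28 and 60, at -0.28 and -0.19 (edgeR FDR 0.00168 and 0.046). IRF7, which drives interferon genes after TLR7 and TLR9 signaling, was lower on days 28, 45 and 60, with log2 fold changes of -0.91, -0.67 and -0.96. Its median was 110 CPM on day 0 (43.6 to 742) and 67.9 CPM on day 28 (43.2 to 234), so that single animals were far above the others on day 0. Of the 8 inhibitors, IRAK3, which blocks IRAK signaling, was called higher on days 28, 45 and 60 by 1.03, 0.68 and 0.82, from a median of 8.61 CPM on day 0 (1.44 to 20) to 19.8 CPM on day 28 (1.69 to 43.2). CYLD, a deubiquitinase, was higher on each day by 0.11 to 0.18. TNFAIP3, NFKBIA and TNIP1, which restrain NF-kappaB signaling, were called lower on day 28 (log2 fold changes -0.26, -0.31 and -0.21, edgeR FDR 0.0112, 0.00067 and 0.00126), and SIGIRR, a receptor that dampens the pathway, on day 45 (-0.11, edgeR FDR 0.0404).

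**Figure D3:**
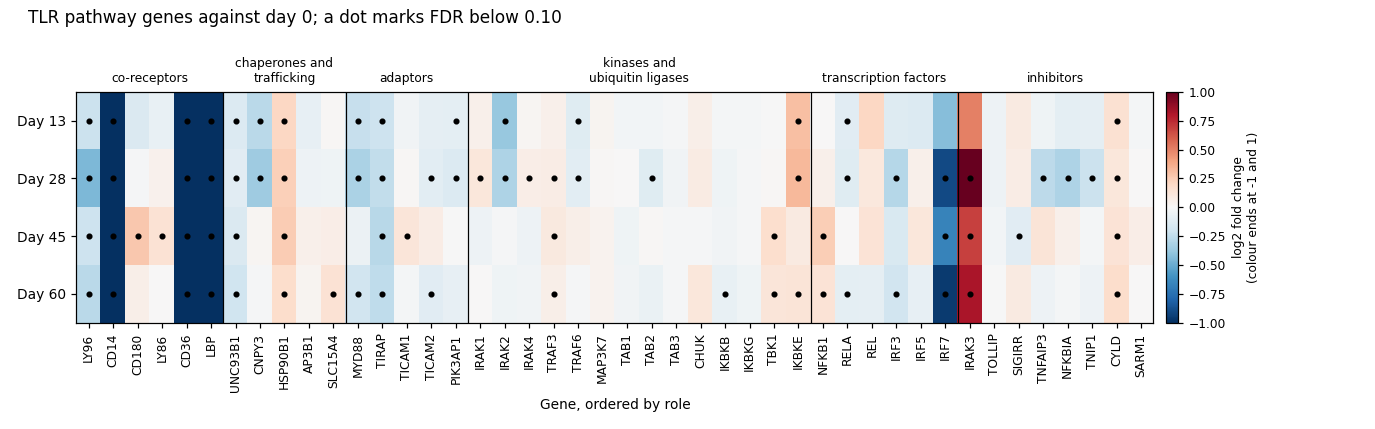
Log2 fold change against day 0 of the 44 tested genes of the pathway list (columns, ordered by role) on days 13, 28, 45 and 60 (rows), with blue lower and red higher, a colour scale that ends at -1 and 1, and a dot where the FDR was below 0.10. CD14, CD36 and LBP lie at or beyond the blue end on all 4 days, and IRAK3 has the deepest red, at 1.03 on day 28.

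TLR6 and TLR10 behaved unlike the other members within the same animal. Over the days of an animal, the SD of log2 levels was 1.04 for TLR6 and 1.32 for TLR10, and 0.22 to 0.47 for the other 7 members. The highest level of an animal was over 4 times its lowest in 18 of 26 animals for TLR6 and in 24 of 26 for TLR10, and in 1 of 26 for TLR4, 1 of 26 for TLR9 and 0 for the other 5 members.

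In animal 40, a BRD steer in INR, TLR10 had 8 counts on day 0 and 833 on day 60, and TLR6 had 15 counts on day 28 and 0 on day 60. In animal 23, also a BRD steer in INR, TLR10 had 0 counts on day 45. TLR6 had 0 counts in animals 21 on day 13 and 40 on day 60, and the other member of the pair had 233 and 833 counts in these libraries. The authors singled out the day 60 sample of animal 40 for its low RNA integrity. The part of this in its 0 and 833 counts was not tested.

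The 2 genes overlap on chromosome 6 in the RefSeq table of assembly ARS-UCD2.0, both list TLR1 as a synonym there, and they are close paralogs. How the assembly of transcripts assigned reads of this region, including reads of TLR1, to a row was not tested, and the values of both genes are uncertain for that reason. The sum of the 2 rows still had an SD of 0.882 within animals, and the log2 levels of TLR6 and TLR10 had a Pearson r of -0.01 (Spearman's rho 0.05) over all libraries. Neither gene had a close companion, since the highest correlation with any of the other genes tested was 0.44 for TLR6 (GATAD1) and 0.38 for TLR10 (PPP1R8).

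**Figure D4:**
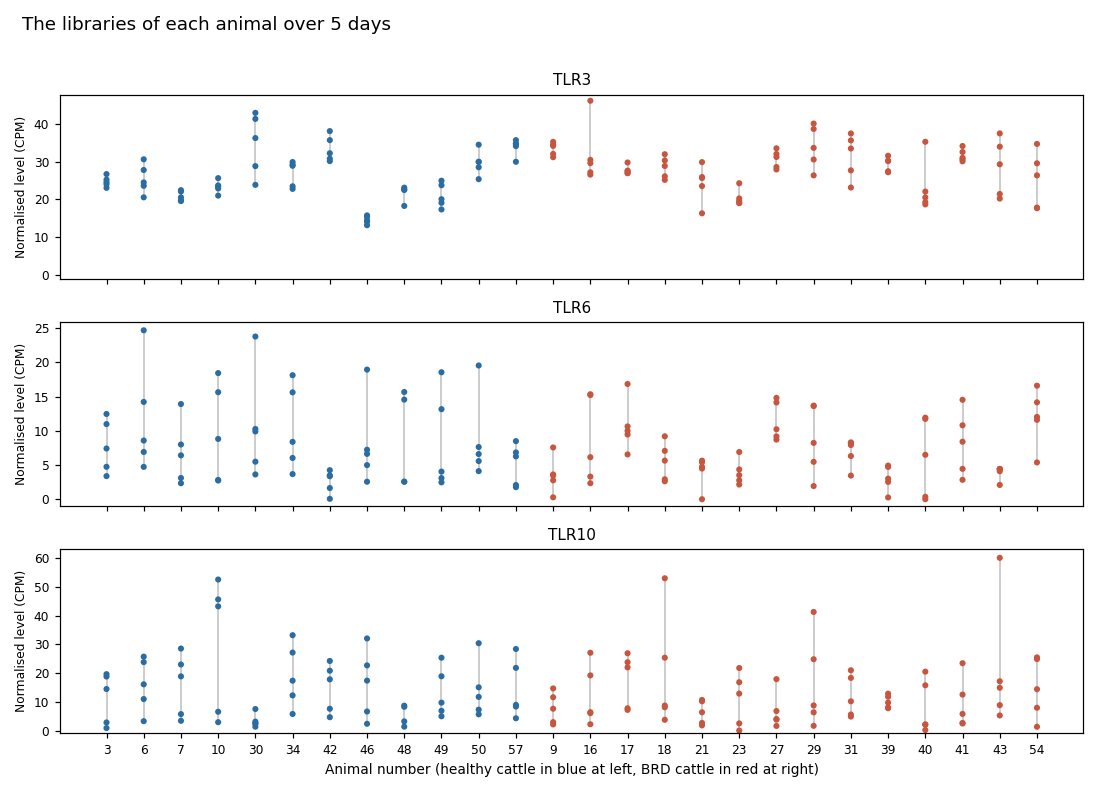
Normalised level (CPM) of TLR3, TLR6 and TLR10 in each of the 26 animals, with 1 point per day and a grey line from the lowest to the highest day, healthy cattle in blue at left and BRD cattle in red at right. The days of an animal lie close together for TLR3 (within-animal SD 0.22 on the log2 scale) and spread over most of the axis for TLR10 (1.32).

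The genes most like each of the other members differed from member to member. By Pearson correlation of log2 levels over all libraries (26 animals on 5 days, less 1), TLR4 was close to ANXA1 (0.85) and to NOD2 (0.85), an intracellular sensor of bacterial peptidoglycan. TLR8 was closest to CTSS (0.73), a lysosomal protease, and then to SNX10 and USP4 (both 0.71). TLR2 was closest to CAPZA2 (0.72), MPEG1 (0.71) and SNX10 (0.70), and TLR7 to SMC6 (0.74), ZFYVE26 (0.70) and SIAH1 (0.69).

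TLR9 was closest to ATP2A3 (0.69), MTCH2 (0.68) and NDUFB5 (0.67), TLR5 to STXBP6 (0.66), F13A1 (0.65) and ZC3H12C (0.65), and TLR3 to KCNA3 (0.59), FAM149A (0.59) and RFX3 (0.56). After GATAD1 and PPP1R8, the next genes were FBXW2 and CNOT8 (both 0.36) for TLR6, and RAD17 (0.35) and ALG10 (0.33) for TLR10. The median correlation of a member with all other genes lay between -0.02 and 0.00. Between members, the highest value was 0.61 for TLR4 with TLR8, followed by 0.51 for TLR5 with TLR8, and the lowest was -0.37 for TLR3 with TLR9. The libraries share animals and days, so these values are descriptions.

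Whether BRD cattle differed from healthy cattle was asked on each day, averaged over the 3 supplement programs with equal weight. No member was called by edgeR on any day, beside 0.0158%, 0%, 0.00528%, 0% and 0.00528% of all genes on day 0 and days 13, 28, 45 and 60. Of these 45 tests, 2 had an unadjusted p under 0.05, and DESeq2 called 0.

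On day 0, TLR7 lay between 88.8 and 130.7 CPM in 12 healthy cattle, and between 86 and 226 CPM in 14 BRD cattle (median 108.4). The groups overlapped, with the higher values of BRD cattle above all healthy cattle, and the log2 difference (BRD minus healthy) was 0.29 (SE 0.114, unadjusted p = 0.0132 and FDR 0.521 in edgeR's quasi-likelihood test). On day 28 the same difference was -0.02 (95% interval -0.24 to 0.20). The day 0 difference lay mostly in COMBO, where disease label and pen group cannot be told apart. There the day 0 means of BRD and healthy cattle were 176.7 and 106.7 CPM. In AAC they were 116.5 and 117.9 CPM, and in INR 110.7 and 99.7 CPM.

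For TLR4 on day 0, healthy cattle ranged from 47.4 to 187 CPM with a median of 71.3, and BRD cattle from 48.7 to 154 CPM with a median of 90.4. The log2 difference was 0.32 (95% interval -0.01 to 0.64, edgeR FDR 0.72). In pens 2, 3, 4 and 8 alone, which held cattle of both labels and no COMBO animals, it was 0.82 and was called (edgeR FDR 0.0146). The share of all genes called in that fit is not given here, so this call has no background beside it. The log2 difference of TLR4 was positive on each day, from 0.13 on day 13 to 0.32 on day 0, and did not pass the test. It was also fitted as a change from day 0, with animal as a block and the 3 programs weighted equally. This difference of changes was negative on the 4 later days, from -0.07 on day 45 to -0.21 on day 13 (edgeR FDR 0.977 to 1). The direct test of changes given earlier did not separate the programs, and there these values were -0.13 and -0.24.

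With the counts of each animal summed over its days, so that an animal counts once, no member was called by edgeR among 20640 genes (0% of all genes), 1 had an unadjusted p under 0.05, and DESeq2 called 0. That member was TLR4, with a log2 difference of 0.22 (SE 0.0876, 95% interval 0.05 to 0.39, FDR 0.776 in edgeR's quasi-likelihood test). For TLR2 the difference was -0.03 (95% interval -0.21 to 0.16), for TLR7 0.07 (-0.04 to 0.19), for TLR8 0.16 (-0.10 to 0.42) and for TLR3 0.17 (-0.04 to 0.37). TLR10 on day 13 had a larger difference, -1.30 (95% interval -2.43 to -0.17, unadjusted p = 0.0266 and edgeR FDR 1), but with the spread within animals given above.

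Neutrophil markers stood somewhat higher in BRD cattle on day 0, with a median log2 difference of 0.48 over 9 markers and 0.00 over all genes, 0 called by edgeR and 3 at an unadjusted p under 0.05. The share of all genes at that unadjusted cutoff is not given here. The summed levels overlapped, with a median of 2630 CPM in healthy cattle (1950 to 5080) and 3230 CPM in BRD cattle (1750 to 9840). BRD animals 43 and 21 had the highest sums, at 9840 and 5980 CPM. The part of these markers in the day 0 values of TLR4 was not tested.

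**Figure D5:**
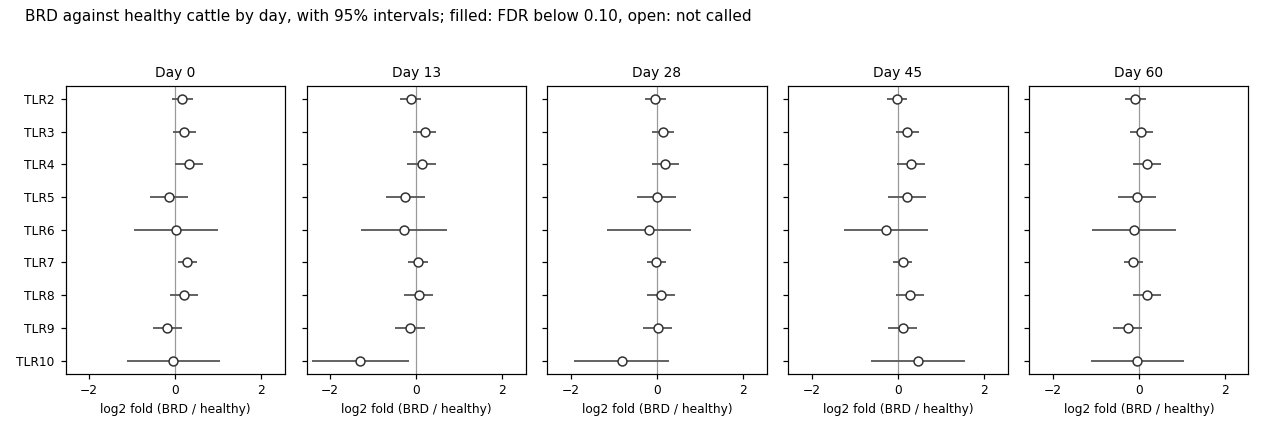
Log2 difference of each measured Toll-like receptor gene in BRD against healthy cattle on day 0 and days 13, 28, 45 and 60 (horizontal axis, positive values higher in BRD cattle), with 95% intervals and open points throughout because no test had an FDR below 0.10. The intervals of TLR7 on day 0 (0.06 to 0.51) and TLR10 on day 13 (-2.43 to -0.17) do not reach 0.

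The supplement programs were compared in pairs on each day, first among healthy cattle. These tests count animals rather than pens, and the 4 healthy COMBO animals all came from pen 5. The paper does not count day 0 differences in expression as effects of supplementation. The day 0 values below therefore describe the groups of animals at enrollment. In 135 tests of members over 3 pairs and 5 days, edgeR called 0, with all-gene backgrounds between 0% and 0.312%, 12 tests had an unadjusted p under 0.05, and DESeq2 called 0. The backgrounds above 0% beside these were 0.186% on day 0 and 0.00547% on day 60 for AAC against COMBO, 0.0274%, 0.0383% and 0.00547% on days 0, 13 and 60 for COMBO against INR, and 0.312% on day 13 for AAC against INR. The smallest FDR was 0.308, for TLR4 in COMBO against INR on day 0. TLR4 then stood at 75.4, 80.4, 86.1 and 187 CPM in COMBO and at 53.1, 53.6, 57.5 and 65.31 CPM in INR. The log2 difference was 0.91 (SE 0.265, unadjusted p = 0.00127 in edgeR's quasi-likelihood test, 0.0274% of all genes called). The value of 187 CPM was that of animal 6.

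On day 28, TLR4 stood at 30.8, 32.9, 37.7 and 37.9 CPM in healthy AAC cattle and at 47.6, 49.7, 51.7 and 72.3 CPM in healthy INR cattle. The log2 difference (AAC minus INR) was -0.69 (SE 0.265, unadjusted p = 0.0122 and FDR 0.487 in edgeR's quasi-likelihood test, 0% of all genes called). TLR4 in COMBO spanned both, at 36.5, 46.6, 57 and 63.5 CPM.

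Among BRD cattle, 135 tests of members gave 0 calls by edgeR, with all-gene backgrounds of up to 12.9% (AAC against COMBO on day 0, and 5.93% on day 13), 3 tests at an unadjusted p under 0.05 and 1 call by DESeq2. All 3 were of TLR7. On day 0, TLR7 stood at 107.2, 197 and 226 CPM in COMBO, at 93.8, 106.4, 109.6 and 156 CPM in AAC, and between 86 and 135 CPM in INR (median 106.7, 7 animals).

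In COMBO, 2 of 3 animals were above all animals of the other programs on day 0, which the paper does not count as supplementation. The log2 difference was -0.60 for AAC against COMBO (SE 0.238, edgeR FDR 0.105, and FDR 0.0972 and so called by DESeq2) and 0.68 for COMBO against INR (SE 0.211, edgeR FDR 0.136, 0.92% of all genes called). On day 45, AAC against COMBO gave -0.54 (FDR 0.609 in edgeR's quasi-likelihood test, 0.0433% of all genes called).

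With the counts of days 13 to 60 summed per animal and both labels weighted equally, no member was called between any pair of programs by edgeR (backgrounds of 0.00493%, 0% and 0.00493% of 20291 genes), 0 of 27 tests had an unadjusted p under 0.05, and DESeq2 called 0. For TLR4 the log2 difference was -0.04 for AAC against COMBO (95% interval -0.29 to 0.20), 0.10 for COMBO against INR (-0.13 to 0.33) and 0.06 for AAC against INR (-0.17 to 0.28). For TLR7 these were 0.04 (-0.12 to 0.20), -0.05 (-0.20 to 0.10) and -0.01 (-0.16 to 0.13). For TLR10 the interval of AAC against COMBO was wider, from -1.04 to 0.29.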

How the data were processed

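Blood RNA libraries (stranded mRNA, paired reads) had been trimmed with Trimmomatic, aligned with HISAT2 to ARS-UCD1.3 and assembled with StringTie, whose coverage the authors converted into the deposited gene counts. These are whole numbers derived from coverage and are not normalized. Levels were computed here as CPM with TMM factors, and log2 levels with a prior count of 2. Tests used edgeR 4.0.16 (quasi-likelihood F-test, FDR below 0.10 by Benjamini-Hochberg) in R 4.3.3, with DESeq2 1.42.0 as an alternative. SE was the log2 fold change divided by the square root of F, so intervals are approximate. The animal was the block for changes between days, taken from the animal number in the labels (median correlation of deviations 0.371 within and -0.01 between animals), and these comparisons share their day 0 libraries. BRD against healthy was fitted by group means without the block, and also on counts summed per animal. No column of the table lacked a sample. The scripts were tested on simulated data.

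The members and all lists were chosen with earlier results of these data known. Genes were named as members, as the 3 called pathway genes of smallest p in each direction, as the 3 genes most correlated with a member (1 is not reported here) and as the 2 markers of highest mean CPM per list. Pathway genes outside that rule (LY96, MYD88, TIRAP, TICAM1, UNC93B1, RELA, IRF3, IRF7, TNFAIP3, NFKBIA, TNIP1 and SIGIRR) and the markers FCER1A, BATF3, XCR1 and SIGLEC1 were chosen after their values were seen. Counting reads without transcript lengths allows no comparison of levels between genes, and overlapping genes (TLR6 with TLR10, TLR2 with RNF175, TLR3 with LOC132344049 in RefSeq, ARS-UCD2.0) may share reads. Alternatives were RLE factors, no filter on low counts, DESeq2, a trended dispersion, an FDR below 0.05, no block, each label alone, pens of both labels alone, 1 fit of all libraries, and libraries or animals left out.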

Additional observations from a re-analysis of the deposited data

Results flagged for a closer look

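In groups of 4 to 7 animals of 1 label, supplement and day, 12 of 216 sets of values of a member had 1 animal far from the others by Dixon's criterion. Chance gives about 1 in 20, or 10.8 here, so the number is close to what chance gives.

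TLR4 stood at 187 CPM in healthy COMBO animal 6 on day 0 (others 75.4 to 86.1), at 101.9 CPM in BRD AAC animal 21 on day 13 (others 59.6 to 64.8) and at 72.3 CPM in healthy INR animal 7 on day 28 (others 47.6 to 51.7). Animals 6 and 21 also had the highest sums of monocyte markers on day 0, at 3350 and 3160 CPM, and the part of these cells in the values of TLR4 was not tested. TLR2 stood at 86.7 CPM in healthy INR animal 10 on day 0 (others 68 to 71.1), and TLR5 at 8.80 CPM in BRD INR animal 23 on day 45 (others 1.76 to 4.58).

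TLR3 was low in BRD AAC animal 21 on day 13, at 23.51 CPM (others 33.5 to 34.4), and high in BRD INR animal 29 on day 45, at 40.1 CPM (others 19.1 to 27.9). TLR8 stood at 98.2 CPM in healthy AAC animal 48 on day 28 (others 69.6 to 73.6). TLR9 stood at 20.6 CPM in BRD AAC animal 31 on day 13 (others 9.36 to 10.8) and at 33.1 CPM in BRD INR animal 43 on day 45 (others 8.91 to 19.1). TLR6 stood at 14.5 CPM in healthy AAC animal 48 on day 45 (others 2.55 to 4.04), and TLR10 at 30.4 CPM in healthy INR animal 50 on day 28 (others 2.90 to 7.49).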

How the results depend on the processing

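No result changed direction with its call under the alternatives run. TLR4 and TLR7 stayed called lower on days 13, 28 and 60 under RLE factors, no filter, DESeq2, a trended dispersion, an FDR below 0.05, no replicate block and each animal left out, but in healthy cattle alone TLR4 on day 13 (-0.38) and TLR7 on day 60 (-0.17) were not called. Without the replicate block, 2 members were called on day 13, 2 on day 45 against day 13, 2 on day 45 against day 28, and 0 on day 60 against days 28 and 45. In healthy cattle alone 1, 0 and 1 members were called on days 13, 45 and 60, and in BRD cattle alone 2 on day 45. At an FDR below 0.05, 3 were called on day 45 against day 13, 3 on day 45 against day 28 and 0 on day 60 against day 28, where no filter also gave 0. BRD against healthy on day 0 gave 1 call (TLR4) in pens 2, 3, 4 and 8 alone, and supplement pairs in BRD cattle gave 1 call with DESeq2 and 2 with 1 fit of all libraries. The share of all genes called in the fit of pens 2, 3, 4 and 8 is not given here. The cause of these changes was not tested.

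Leaving out 1 animal at a time (for day changes, members alone with the dispersion, prior and p cutoff held) gave 3 to 4 calls on days 13 and 28, 0 to 2 on day 45 (0 without animals 6 or 43, and 2 without 18, 21, 41, 49 or 54) and 2 to 4 on day 60 (4 without animal 17). It gave 0 to 1 calls on day 28 against day 13 (1 without animal 7) and day 60 against day 13 (1 without animal 16), 3 to 6 on day 45 against day 13 (3 without animal 42) and 3 to 5 on day 45 against day 28 (3 without animal 23). On day 60 it gave 0 to 2 against day 28 (2 without animal 7, 0 without 10, 29, 30, 31, 34, 39, 41, 43 or 50) and 1 to 2 against day 45 (2 without animals 30 or 49). BRD against healthy on day 0 ranged from 0 to 1 (1 without animal 16) and supplement pairs in BRD cattle from 0 to 2 (2 without animal 16, 1 without 21 or 40). The removal of the day 0 libraries of animals 6, 21 and 43, chosen after seeing the data, gave 3, 2, 1 and 2 calls on days 13, 28, 45 and 60, and the call on day 45 was then TLR2 and not TLR4. TLR8 on day 13 was also lost under RLE factors, no filter and DESeq2.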
